A study of Mus musculus with 6 samples.

Results

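Tropomyosins, calponins and actin-bundling proteins were followed here through the early stages of blood formation. The members were every probe set annotated to Tpm1, Tpm2, Tpm3, Tpm4, Cnn2, Cnn3, Tagln2, Fscn1, Actn1 or Actn4 alone, which gave 32 of 34945 probe sets with a single gene symbol and 10 of 18193 genes. Tpm4, Cnn3 and Fscn1 were selected on their large log2 differences between the sorted groups in these same arrays, so the values of these 3 genes are given as a description, with an error but no test. The other 7 genes were taken for their family and were tested. Expression arrays were hybridised with RNA of mouse bone marrow cells, 2 arrays for each of 3 groups sorted by CD34 and Flt3. All groups were LSK cells (lineage-negative, Sca1+ and Kit+) of adult mice aged 10 to 14 weeks, with no treatment, strain or genotype named in the labels. The groups were CD34-Flt3- cells, in which long-term stem cells are found, CD34+Flt3- cells and CD34+Flt3hi cells, in which multipotent progenitors with lymphoid potential are found. Whether 2 arrays of one population represent separate animals or sorts is not stated. The p-values then reflect array-to-array spread, some or all of which may be technical. Cells were sorted straight into lysis buffer, and the RNA went through a second round of in vitro transcription.

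Tropomyosins are coiled-coil dimers that lie along the actin filament and govern which myosins and severing proteins reach it. The 4 mammalian genes give many isoforms by alternative promoters and splicing. Calponins and transgelins share a calponin homology domain and repeats that bind actin. Fascin packs filaments into the tight parallel bundles of filopodia, and alpha-actinins link filaments as antiparallel dimers. Among blood cells, Tpm4 protein is known from platelets and their megakaryocyte precursors, and fascin from mature dendritic cells. Many genes of this kind are controlled by SRF, a transcription factor that binds the CArG box.

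The promoters of the 3 genes with the largest differences are shown, since Tpm4 and Cnn3 were both highest in CD34+Flt3hi cells and Fscn1 in CD34-Flt3- cells. Each line gives the 250 bases before the start site from RefSeq (GRCm38.p6, plus strand), with matches to the searched motifs in capitals. They lie at chr8:72135038-72135287 for Tpm4, chr3:121426291-121426540 for Cnn3 and chr5:142960105-142960354 for Fscn1.
Tpm4: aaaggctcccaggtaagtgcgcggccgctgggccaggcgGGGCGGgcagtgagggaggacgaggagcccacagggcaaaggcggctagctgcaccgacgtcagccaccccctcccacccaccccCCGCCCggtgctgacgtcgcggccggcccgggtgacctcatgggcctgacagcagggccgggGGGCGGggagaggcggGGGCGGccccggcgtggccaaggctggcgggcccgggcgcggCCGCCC
Cnn3: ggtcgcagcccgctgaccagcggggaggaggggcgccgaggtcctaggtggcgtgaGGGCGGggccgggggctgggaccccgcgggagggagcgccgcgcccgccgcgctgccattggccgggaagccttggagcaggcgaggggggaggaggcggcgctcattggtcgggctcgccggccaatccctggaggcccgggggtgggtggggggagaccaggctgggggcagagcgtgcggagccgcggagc
Fscn1: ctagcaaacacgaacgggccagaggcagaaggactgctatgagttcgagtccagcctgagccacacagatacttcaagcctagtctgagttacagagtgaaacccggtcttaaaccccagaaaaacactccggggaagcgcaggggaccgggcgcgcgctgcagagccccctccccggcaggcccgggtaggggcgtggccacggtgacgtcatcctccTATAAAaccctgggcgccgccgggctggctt
The search covered the CArG box, the GC box GGGCGG, the TATA box TATAAA and the MCAT element CATTCC on both strands, over 300 bases from 250 before to 50 after the start. All 10 genes matched the RefSeq table, with 11 promoters between them. Tpm4 held 5 GC boxes and Cnn3 held 1, while Fscn1 held a TATA box from 31 to 26 bases before its start and no GC box. Of the member promoters 9 held a GC box, 3 a CATTCC (Tpm1, Tagln2 and Actn4) and 1 a TATAAA, against 35.7%, 14.7% and 13.6% of all 32851 promoters in the table. The CArG box was found in 1, that of Cnn2, as CCTTATAAGG from 56 to 47 bases before the start, against 1.63% of all promoters. A match describes these letters only. GC content was 76.0% in the Tpm4, 78.3% in the Cnn3 and 61.7% in the Fscn1 window, with a median of 52.7% over all promoters.

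Values are log2 intensities. Each SE is the moderated SE of limma, from the spread over all 6 arrays drawn toward that of genes of like intensity. It is not the spread of 2 arrays alone, and n is the number of arrays a group. The main reading of a gene is its probe set with the highest mean, and levels are compared only within a probe set. Background was set at 4.50, below which 90% of the readings of 27 unspiked bacterial controls lay. Of the 32 probe sets 21 lay above it on all 6 arrays, 6 on some arrays and 5 on none. The titles carry codes of unstated meaning, here A (replicate 2 of each group), B (replicate 1 of CD34+Flt3- and CD34+Flt3hi) and C (replicate 1 of CD34-Flt3-). Array medians were close, from 29.7 to 31.4 in linear units, and precision is limited by having 2 arrays a group. CD34-Flt3- replicate 2 stood apart in its controls, with a 3 prime to 5 prime actin ratio of 5.55 (3.25 to 4.44 on the others) and a bioC hybridisation control of 4281 (1916 to 2770 on the others). Kit, Cd34 and Flt3 were above background on every array, and of the mature erythroid markers measured (4 of 6) none was above it on more than 2 arrays. In RNA from sorted populations, fewer cells of a type and less RNA per cell cannot be told apart.

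Tpm4 (Entrez gene 326618), the tropomyosin of platelets, was highest in CD34+Flt3hi cells and lowest in the middle group. Its single probe set read 7.57 and 7.43 in CD34-Flt3- cells, 6.65 and 6.50 in CD34+Flt3- cells and 9.62 and 9.42 in CD34+Flt3hi cells. No array of one group overlapped another group, and the widest gap between replicates was 0.20. The group means correspond to linear intensities of 181, 95.3 and 735. Its mean in CD34+Flt3hi cells was 2.95 ± 0.25 (SE, n = 2) above the CD34+Flt3- mean, or 7.71-fold, and 2.02 ± 0.25 above the CD34-Flt3- mean, or 4.06-fold. The first of these was 2.92 within code A and 2.97 within code B, and the other was 1.99 within code A. CD34+Flt3- cells lay below CD34-Flt3- cells, with a difference of -0.92 ± 0.25 (-0.93 within code A).

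Tpm1 (Entrez gene 22003), the gene of alpha-tropomyosin, had its highest mean in CD34-Flt3- and its lowest in CD34+Flt3hi cells. The readings were 7.87 and 7.67, then 7.44 and 7.23, then 7.03 and 7.01 in the order of the sort. The 3 groups did not overlap, but the difference between the outer groups, -0.75 ± 0.26 (SE; 95% interval -1.32 to -0.17; -0.65 within code A), did not pass over all genes (limma adjusted p = 0.145). The steps of -0.43 and -0.31 did not pass either (limma adjusted p = 0.43 and 0.941). A further Tpm1 probe set above background on all arrays gave 6.65 and 6.50, 6.19 and 6.13, and 5.82 and 6.06, so its groups were in the same order and did not overlap. The remaining 2 were near or below background.

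Tpm2 (Entrez gene 22004), beta-tropomyosin, varied more between replicates than Tpm1. It read 6.29 and 6.95 in CD34-Flt3- cells, 7.41 and 7.49 in CD34+Flt3- cells and 6.58 and 7.58 in CD34+Flt3hi cells. The CD34-Flt3- arrays were both below the CD34+Flt3- arrays, while the CD34+Flt3hi arrays spanned both. The first step was 0.83 ± 0.37 (95% interval 0.00 to 1.66; 0.54 within code A) and did not pass (limma adjusted p = 0.293). From CD34+Flt3- to CD34+Flt3hi cells the difference was 0.09 within code A and -0.82 within code B. The next brightest Tpm2 probe set differed by 1.02 at the first step, with 4.82 and 6.23 in CD34-Flt3- and 6.38 and 6.71 in CD34+Flt3- cells.

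Tpm3 (Entrez gene 59069), whose short isoforms are found in most non-muscle cells, differed little between groups. It read 12.01 and 11.61, 11.95 and 11.99, and 12.11 and 12.09 in the order of the sort. Its differences of 0.16, 0.13 and 0.29 for the steps and the outer groups did not pass (limma adjusted p = 0.694, 0.977 and 0.421), and the 95% intervals reached at most 0.67 in size. The 4 other Tpm3 probe sets went the other way at the first step, from -0.52 to -0.13, and the same way at the next, from 0.28 to 0.77. At that next step both CD34+Flt3hi arrays were above both CD34+Flt3- arrays in all 5 Tpm3 probe sets. None of these passed when probe sets were tested singly (limma adjusted p between 0.647 and 0.998).

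Cnn3 (Entrez gene 71994), the acidic calponin found outside smooth muscle, was far higher in CD34+Flt3hi cells than in either other group. Its brightest probe set read 7.01 and 6.98 in CD34-Flt3- cells, 5.51 and 7.29 in CD34+Flt3- cells and 10.32 and 10.92 in CD34+Flt3hi cells. The CD34+Flt3hi arrays stood above the 4 others, and the CD34+Flt3- arrays lay on either side of the CD34-Flt3- arrays. CD34+Flt3hi exceeded CD34+Flt3- cells by 4.22 ± 0.49 (SE, n = 2), 18.6-fold, and CD34-Flt3- cells by 3.63 ± 0.49, 12.4-fold. Within code A these were 3.62 and 3.94, and within code B the first was 4.81. That first difference was 3.32 without CD34+Flt3- replicate 1 and 5.11 without its other array. Between the CD34-Flt3- and CD34+Flt3- groups the sign turned on 1 array, with -0.59 from all arrays, but 0.30 when CD34+Flt3- replicate 1 was left out and -1.48 when replicate 2 was.

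The 6 probe sets of Cnn3 ranked CD34+Flt3hi cells highest without exception. Over the 5 others the difference from CD34+Flt3- cells ran from 1.02, in a probe set below background on all arrays, to 4.41. All but 1 carry the x suffix, which marks probes that may also bind other transcripts. The probe set without it read 5.69 and 5.60, 5.32 and 6.53, and 8.54 and 8.92 in the order of the sort. Its difference between CD34+Flt3hi and CD34+Flt3- cells was 2.80 ± 0.39, below the 4.22 of the brightest. Cnn3 was below background on CD34+Flt3- replicate 1 in 3 of its 6 probe sets, at 4.28, 3.60 and 3.15.

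Cnn2 (Entrez gene 12798), the calponin of blood and other non-muscle cells and the member with a CArG box, kept a narrow range. It read 10.74 and 11.01, 10.50 and 10.23, and 10.61 and 10.51 in the order of the sort, and no groups overlapped. The first step was -0.51 ± 0.20 (95% interval -0.96 to -0.07; -0.78 within code A), short of the threshold over all genes (limma adjusted p = 0.228). With the title code as a block it was -0.74, but the CD34-Flt3- level then rested on replicate 2 alone. It then differed by 0.20 between CD34+Flt3hi and CD34+Flt3- cells (0.28 within code A and 0.12 within code B, limma adjusted p = 0.961). Tagln2 (Entrez gene 21346), the transgelin of leukocytes and platelets, read 10.41 and 10.78, 10.63 and 10.82, and 10.42 and 10.62. Its groups overlapped except that the CD34+Flt3hi arrays were just below the CD34+Flt3- arrays, by -0.21 (-0.20 within code A and -0.21 within code B, limma adjusted p = 0.961). Its 95% intervals over the 3 comparisons stayed between -0.66 and 0.59. The next Tagln2 probe set gave 0.40, -0.37 and 0.03 in the same order of comparisons.

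Fscn1 (Entrez gene 14086), the gene of fascin, stood out in CD34-Flt3- cells by its brightest probe set. That probe set read 8.89 and 9.42 in CD34-Flt3- cells, 6.13 and 5.59 in CD34+Flt3- cells and 4.37 and 6.01 in CD34+Flt3hi cells. The CD34-Flt3- arrays were above the 4 others, the remaining groups overlapped, and CD34+Flt3hi replicate 1 was below background. Against CD34-Flt3- cells, Fscn1 differed by -3.96 ± 0.48 (SE, n = 2) in CD34+Flt3hi cells, 15.6-fold lower, and by -3.29 ± 0.48 in CD34+Flt3- cells. Within code A these were -3.41 and -3.83. Without CD34-Flt3- replicate 2, the array with the highest actin ratio, these were -3.70 and -3.03. Without CD34+Flt3hi replicate 1 the outer difference was -3.15, and without its replicate 2 it was -4.78.

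The 3 other Fscn1 probe sets showed much smaller differences. The brightest of them read 6.62 and 6.29, 5.88 and 5.44, and 5.85 and 5.56, so CD34-Flt3- cells were again above the rest (-0.79 ± 0.30 at the first step and -0.75 ± 0.30 between the outer groups). The last 2 differed from CD34-Flt3- cells by between -0.50 and -0.03. Averaging the 4 Fscn1 probe sets gave an outer difference of -1.33 in place of -3.96. Within code A the last 2 gave 0.12 and 0.32 at the first step and -0.73 and 0.24 between the outer groups. The size of the Fscn1 difference therefore turned on the probe set. In the 2 dimmest the sign at the first step also differed between the group means and code A. Between the outer groups it differed only in the dimmest.

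In their brightest probe sets the alpha-actinins differed little between groups. Actn1 (Entrez gene 109711) read 7.18 and 7.22, 7.34 and 7.06, and 7.44 and 7.53, with both CD34+Flt3hi arrays above the 4 others. That difference was 0.28 ± 0.26 from either group (0.46 within code A and 0.10 within code B against CD34+Flt3- cells, and 0.30 within code A against CD34-Flt3- cells). It did not pass (limma adjusted p = 0.95 and 0.649). The other Actn1 probe sets had the opposite sign between CD34+Flt3hi and CD34+Flt3- cells, -0.30 and -0.13. Actn4 (Entrez gene 60595) read 10.37 and 10.39, 10.44 and 10.40, and 10.37 and 10.14. Its differences of 0.04, -0.16 and -0.13 did not pass (limma adjusted p = 0.948, 0.971 and 0.8), with 95% intervals between -0.59 and 0.47.

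**Figure D1:**
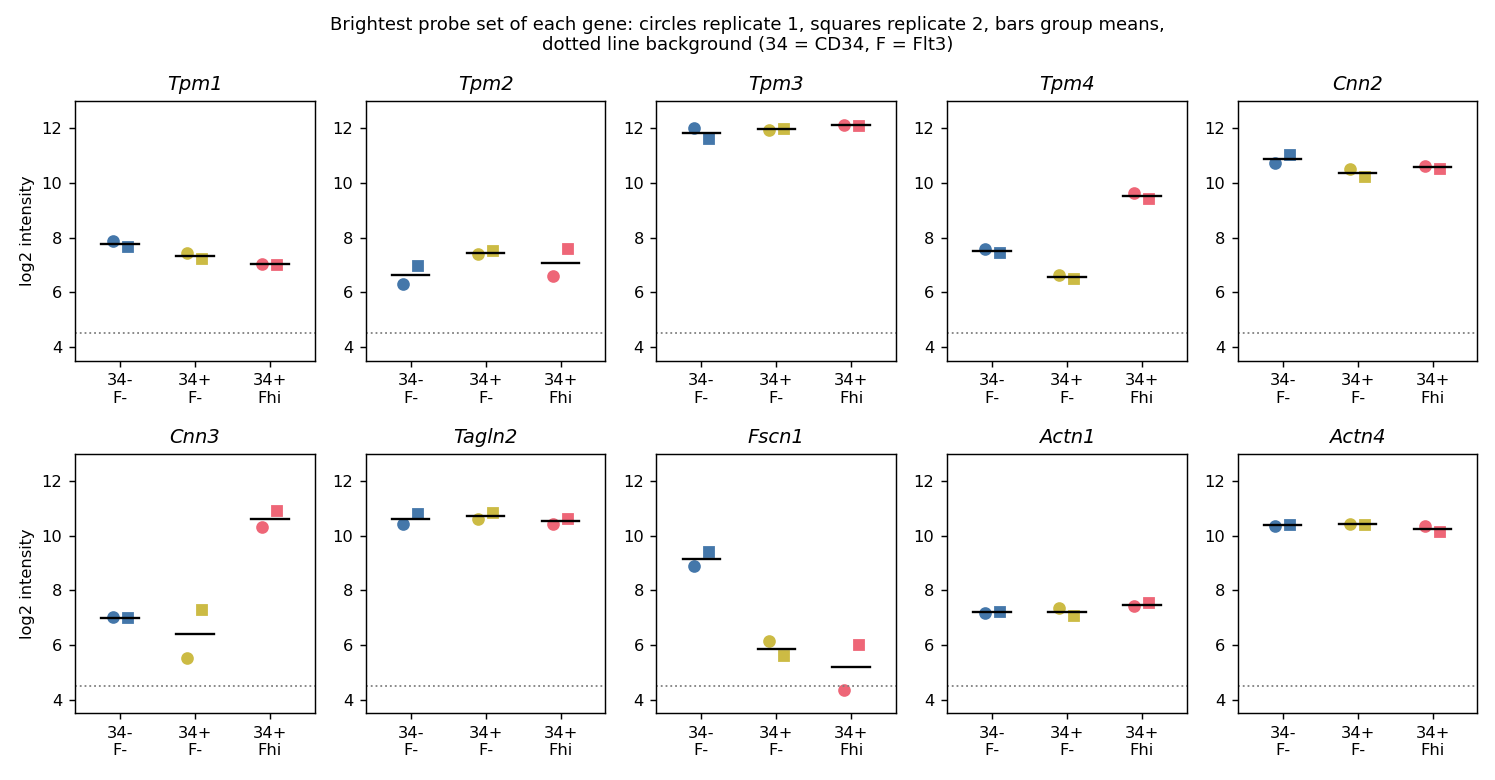
Log2 intensity of the brightest probe set of each of the 10 genes on the 6 arrays, by sorted group; circles are replicate 1, squares replicate 2, bars the group means of 2 arrays and the dotted line background at 4.50. Tpm4 and Cnn3 are highest in CD34+Flt3hi cells, Fscn1 is highest in CD34-Flt3- cells, and Tpm3, Tagln2 and Actn4 stay nearly level.

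**Figure D2:**
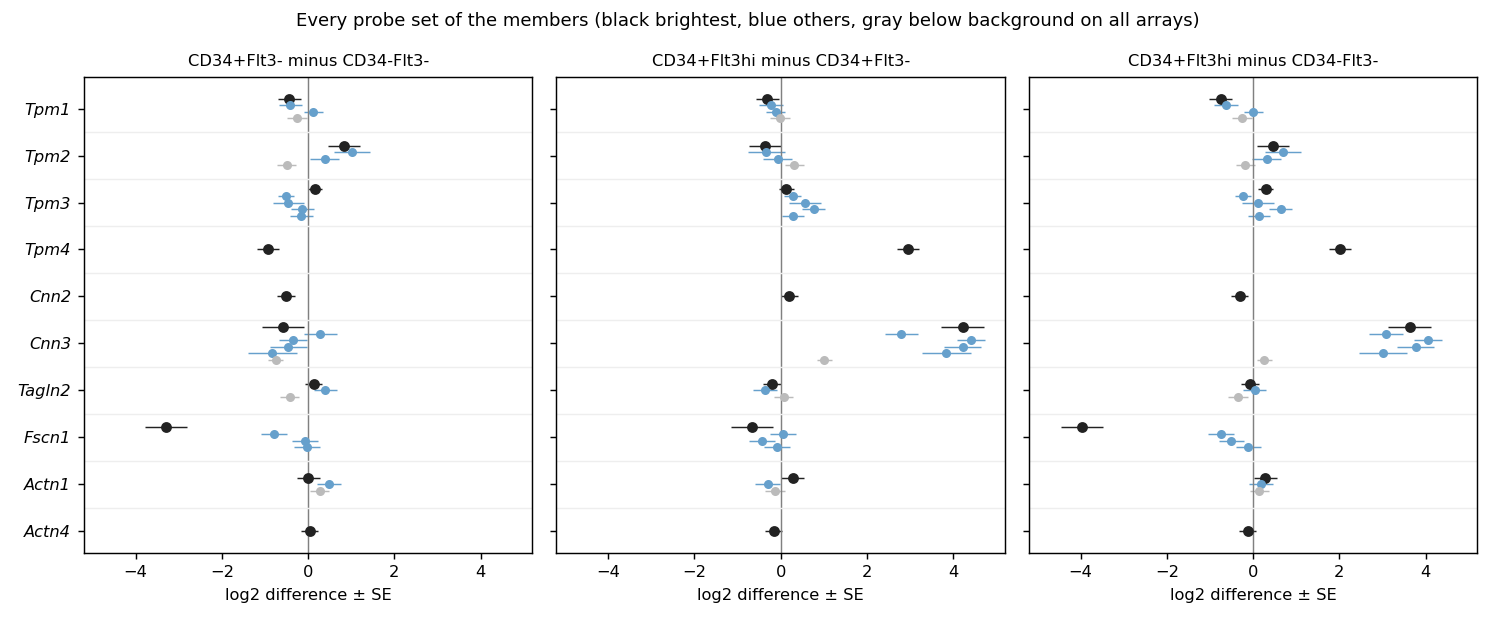
Log2 difference with its SE for all 32 probe sets in each of the 3 comparisons; black is the brightest probe set of a gene, blue the others and gray those below background on all 6 arrays. The Cnn3 probe sets above background lie together between 2.80 and 4.41 for CD34+Flt3hi minus CD34+Flt3-, while 1 Fscn1 probe set lies far from its 3 others in both comparisons with CD34-Flt3-.

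Counted together, none of the 7 genes taken for their family passed the threshold in any comparison. For CD34+Flt3- against CD34-Flt3- cells 0 of 7 passed limma over all genes and 2 (Tpm2 and Cnn2) had an unadjusted p under 0.05, where 2.1% of all genes passed and 16.9% had such a p. Between CD34+Flt3hi and CD34+Flt3- cells 0 of 7 passed, 0 had an unadjusted p under 0.05, beside 0.61% and 6.76% of all genes. Between the outer groups 0 of 7 passed, 1 (Tpm1) had an unadjusted p under 0.05, beside 6.11% and 18.3% of all genes. Tested singly, none of their probe sets passed, beside 1.12%, 0.343% and 4.13% of all probe sets. Median differences of the 7 were 0.04, -0.16 and -0.08, beside -0.10, 0.03 and -0.07 over all genes. Arrays of the compared groups did not overlap for 4, 6 and 5 of the 7 genes, where 44.2%, 40.4% and 47.9% of all genes did not. The comparisons share arrays and are not independent of each other.

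Marker lists of other cell types were read beside the members. The 11 megakaryocyte and platelet markers summed to 3999 and 4194 in linear units in CD34-Flt3- cells, 2657 and 1199 in CD34+Flt3- cells and 452 and 391 in CD34+Flt3hi cells. The sum was thus lowest where Tpm4 was highest, and Pf4, Vwf and Gp1bb were below background in CD34+Flt3hi cells. In CD34-Flt3- cells Vwf read highest of the list (11.12 and 10.78). Not all markers followed the sum. Gp6 stayed nearly level (4.81 and 4.78, 4.59 and 4.54, and 4.73 and 4.61), and Tubb1 overlapped between the CD34+ groups (4.83 and 4.19, and 4.24 and 4.66). Pf4, Itga2b, Gp1bb, Gp9 and Treml1 were higher on CD34+Flt3- replicate 1 than on either CD34-Flt3- array. The 10 smooth muscle and pericyte markers, a setting in which calponins are best known, summed to 367 and 487, 616 and 582, and 741 and 638. Myh11 and Myocd, which define smooth muscle, were below background on all 6 arrays, and Cnn1, the smooth muscle calponin, was above it on 2. Pdgfrb of that list read 5.87 and 6.18, 7.88 and 7.42, and 8.36 and 8.03, so it was higher in both CD34+ groups. Acta2 (5.84 and 5.93, 6.38 and 6.23, 6.22 and 6.27) and Tagln (4.32 and 4.98, 5.58 and 5.75, 5.48 and 4.999) were also higher there, while Des, Smtn and Cspg4 were above background on all 6 arrays without that order. The 8 neutrophil and monocyte markers summed to 1216 and 1263, 1258 and 1272, and 1575 and 1233. Their mean log2 was 5.43, 5.63 and 5.825 in the order of the sort, so it rose where the sum was nearly level. Within that list Csf1r, the receptor of a macrophage growth factor, read 5.79 and 6.36, 6.82 and 7.58, and 9.57 and 8.89, highest where Cnn3 was, whereas Lyz2, lysozyme, read 10.00 and 9.99, 9.95 and 9.84, and 9.34 and 9.23. Ltf and S100a8 were below background throughout. The part of these lists in the Cnn3 and Tpm4 values was not tested.

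In the group with high Fscn1, the linear sums of other lists were high as well, and a linear sum follows its brightest genes. The 8 dendritic markers measured (of 9) summed to 1654 and 1831 in CD34-Flt3- cells, 558 and 593 in CD34+Flt3- cells and 757 and 1330 in CD34+Flt3hi cells. H2-Aa of the dendritic list, an MHC class II gene, read 10.35 and 10.52, 8.41 and 8.62, and 8.79 and 9.87. Cd74 read 7.69 and 7.56, 6.16 and 5.71, and 7.003 and 7.68. Itgax (4.58 and 4.99, 4.45 and 4.45, 5.47 and 5.81) and Ccr7 (4.43 and 4.56, 4.24 and 4.62, 5.17 and 5.38) were instead highest in CD34+Flt3hi cells, and Cd83 and Xcr1 were below background on all arrays. The 8 endothelial markers summed to 1636 and 1320, 787 and 712, and 289 and 251, with Cdh5, the endothelial cadherin, below background throughout. Esam read highest of them (9.58 and 9.38, 8.29 and 8.64, and 5.94 and 6.12). Pecam1 (4.97 and 4.97, 5.02 and 4.82, and 5.45 and 4.54) and Plvap (4.83 and 5.19, 4.86 and 5.35, and 4.74 and 4.76) did not follow the sum. The 9 stromal and bone markers measured (of 10) summed to 313 and 401, 287 and 258, and 259 and 233, with Col3a1 and Lum below background throughout. Col1a2 read 6.68 and 6.94, 6.23 and 5.24, and 5.36 and 4.95, while in Sp7, Pdgfra and Dcn the CD34-Flt3- arrays overlapped the CD34+Flt3- arrays. The 7 B lineage markers measured (of 8) summed to 439 and 424 in CD34-Flt3- cells and to 293 to 345 on the 4 other arrays. Of that list only Cd79b had both CD34-Flt3- arrays (7.60 and 7.61) above the 4 others (6.99 to 7.22). Igll1, Ebf1, Pax5, Cd79a and Vpreb1 overlapped, and Ms4a1 was below background throughout. The part of these lists in the Fscn1 values was not tested.

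The genes most like the 3 changing members were found by the root mean square difference of log2 values over the 6 arrays, each gene centred on its mean. The search covered 12531 genes whose mean over the arrays was above background, after members and predicted or accession-like symbols were left out. The nearest genes are a description of 6 points that share their arrays. A gene could enter through the group where it is high, and Arpp21 and Ddx4 were above background on only 2 arrays, Hoxb5 on 3, Unc45b and Cdkn1c on 4, and Msrb3, Emp1 and Slc35d3 on 5, so their likeness rests partly on readings below background. For Tpm4 these were Ctss (0.20), the gene of lysosomal cathepsin S, then Notch1 (0.26), a receptor in T lineage choice, Arpp21 (0.35), Msrb3 (0.39), a methionine sulfoxide reductase, and Tspan2 (0.44), a tetraspanin. Ctss read 9.09 and 9.06, 7.84 and 7.78, and 10.89 and 10.47, which repeats the dip of Tpm4 in the middle group. For Cnn3 they were Irf8 (0.58), an interferon regulatory factor needed for monocyte and dendritic cell development, Emp1 (0.59), Ncf1 (0.64), a subunit of the phagocyte oxidase, Ddx4 (0.67) and Slc35d3 (0.76). Irf8 read 5.79 and 6.17, 5.86 and 6.84, and 10.11 and 9.57. For Fscn1 they were Dusp4 (0.48), a phosphatase of MAP kinases, Unc45b (0.49), a myosin chaperone, Hoxb5 (0.56), Cdkn1c (0.57), a cell cycle inhibitor, and Ndn (0.62). Unc45b read 8.27 and 8.77, 5.39 and 4.85, and 3.97 and 4.10, highest in CD34-Flt3- cells as Fscn1 was.

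**Figure D3:**
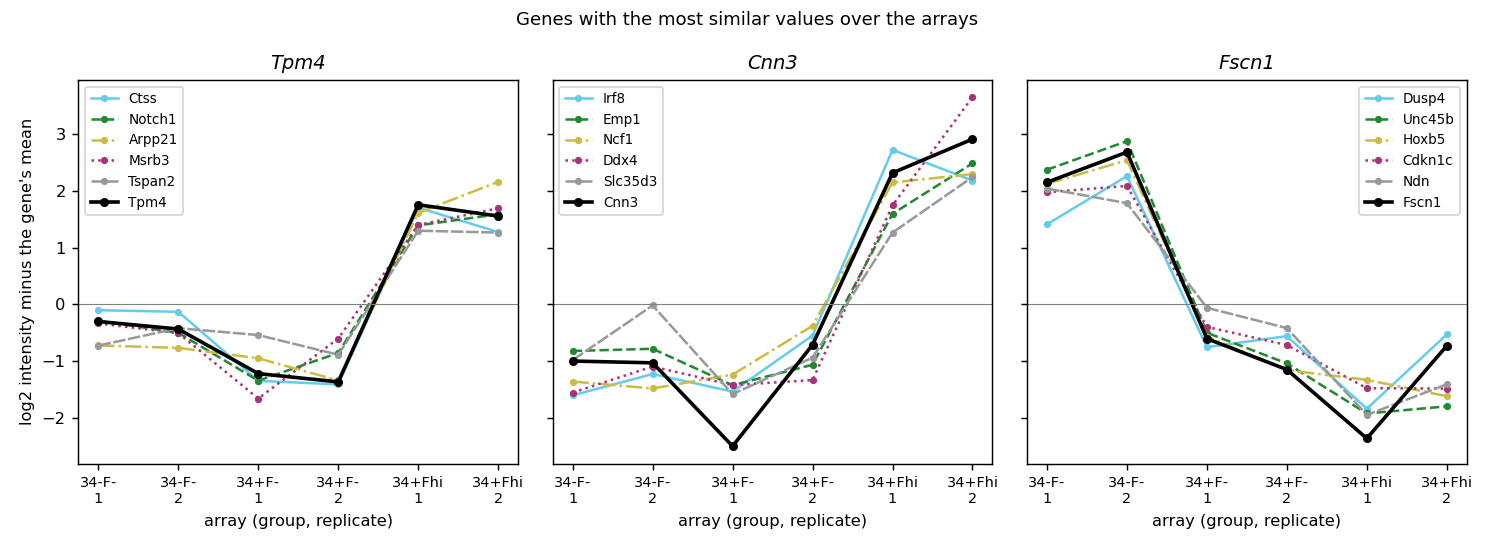
Log2 intensity of Tpm4, Cnn3 and Fscn1 (black) and of the 5 genes nearest to each, every gene minus its own mean, on the 6 arrays; lines join arrays only to guide the eye. Ctss follows Tpm4 most closely (root mean square difference 0.20), and the genes nearest to Cnn3 lie farther away (0.58 to 0.76).

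The rest of the actin machinery was read from 7 lists with 119 genes, of which 112 were measured. In CD34+Flt3- against CD34-Flt3- cells 2 rose and 2 fell, 3.57% beside 2.1% of all genes (0.77% higher and 1.33% lower), with a median of -0.08. Actb, the main cytoplasmic actin, rose by 0.74 ± 0.11 (SE; limma adjusted p = 0.0176; 0.78 within code A), and Tmsb10, thymosin beta 10, which binds actin monomers, rose by 0.98 ± 0.18 (adjusted p = 0.0304). From its probe set without an x or s suffix Tmsb10 differed by 0.12 (limma adjusted p = 0.879), and with the mean of its probe sets by 0.69 (limma adjusted p = 0.151), neither past the threshold. Mylk, the myosin light chain kinase, fell by 1.76 on the log2 scale (adjusted p = 0.0365). Pfn2, a profilin, was at least 1.77-fold lower (adjusted p = 0.043), since it was below background in CD34+Flt3- cells, and did not pass with the title code as a block (limma adjusted p = 0.0591). All 4 calls were lost without CD34+Flt3- replicate 1 or 2 and without CD34+Flt3hi replicate 1 or 2 (limma, 12 to 23 at an unadjusted p under 0.05), and the count was 10 without CD34-Flt3- replicate 2. Another Actb probe set differed by -0.14, while the control probe set at the 3 prime end of actin read 7693 and 7368 in CD34-Flt3- cells and 12426 to 12963 on the 4 other arrays.

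At the step where Tpm4 and Cnn3 differed most, few genes of the lists passed. From CD34+Flt3- to CD34+Flt3hi cells 1 of 112 genes rose and 0 fell, 0.893% beside 0.61% of all genes (0.385% higher and 0.225% lower), with a median of 0.01. That gene was Tmsb10, higher by 0.995 ± 0.18 (limma adjusted p = 0.0491; 1.32 within code A and 0.67 within code B). The call was lost without any single array of these groups (limma adjusted p = 0.135 to 0.768), and the 4 other Tmsb10 probe sets gave 0.16 to 1.41. Without either CD34-Flt3- array 6 genes of the lists passed. Outside the rule for named genes, other calponin family members are given for comparison, chosen after their values were seen. Tagln and Tagln3 differed by -0.43 and -0.20, neither past the threshold. Cnn1 was below background in CD34+Flt3- cells and read 4.690 and 4.496 in CD34+Flt3hi cells, the latter also just below background, so no fold is given. Its difference did not pass (limma adjusted p = 0.95). Srf and its cofactors Mrtfa and Mrtfb differed by 0.05, 0.07 and -0.06, none past the threshold, and Myocd was below background in both groups.

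Between the outer groups 5 genes of the lists rose and 7 fell in CD34+Flt3hi cells, 10.7% beside 6.11% of all genes (2.62% higher and 3.5% lower), with a median of 0.01. The largest difference was in Myh10, the heavy chain of non-muscle myosin IIB, which read 9.10 and 7.97 in CD34-Flt3-, 7.27 and 5.40 in CD34+Flt3- and 4.99 and 4.53 in CD34+Flt3hi cells. It fell by 3.78 on the log2 scale (SE 0.56, limma adjusted p = 0.00409, -3.44 within code A) and passed under all 15 alternatives tried, though its other probe set differed by 0.28. Tmsb10 rose by 1.97 ± 0.18 (adjusted p = 0.000422), with 10.85 and 11.00 in CD34-Flt3- and 12.77 and 13.03 in CD34+Flt3hi cells. From its probe set without an x or s suffix it differed by 0.28 and did not pass (limma adjusted p = 0.691). Other rises were Cap1, a cyclase-associated protein that recycles actin monomers (1.68, adjusted p = 0.0344), Lcp1, the leukocyte plastin that bundles actin (0.70, adjusted p = 0.0346), Actb (0.61, adjusted p = 0.0117) and Actn2, the muscle alpha-actinin. Cap1 differed by 1.02 and did not pass without CD34-Flt3- replicate 2 (limma adjusted p = 0.0648), and by 2.34 without replicate 1 of that group. Actn2 was below background in CD34-Flt3- cells, which gives at least 1.09-fold (adjusted p = 0.0303).

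Of the other genes that fell between the outer groups, the formin Diaph1 fell by 1.44 on the log2 scale (adjusted p = 0.00417) and Capg, which caps filament ends, fell by 1.34 (adjusted p = 0.00838). Pfn2 was at least 1.77-fold lower (adjusted p = 0.0057). Pdlim1 fell by 1.48 (adjusted p = 0.015), Mylk fell by 1.47 (adjusted p = 0.035) and Vasp fell by 1.05 (adjusted p = 0.0476), all by limma. With the title code as a block Mylk (-0.93, limma adjusted p = 0.0696) and Vasp (-0.78, limma adjusted p = 0.123) did not pass, and without CD34-Flt3- replicate 1 Mylk was -0.93 and did not pass either (limma adjusted p = 0.0661). Without CD34+Flt3hi replicate 1 or 2 the list count was 2, Myh10 and Tmsb10, and without CD34+Flt3- replicate 2 it was 7. Other probe sets agreed in sign with the brightest for Diaph1, Capg, Pdlim1, Mylk, Pfn2, Lcp1, Cap1 and Tmsb10, and not for Actb (-0.45) or Myh10. Their sizes differed, with -0.39 to -0.13 for Diaph1 and -0.79 to -0.07 for Pdlim1, but 1.17 for Lcp1. With the mean of each gene's probe sets 3 calls were lost, and the other list calls of this comparison remained. Those lost were Diaph1 (-0.65, limma adjusted p = 0.188), Pdlim1 (-0.78, limma adjusted p = 0.066) and Actb (0.08, limma adjusted p = 0.825).

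**Figure D4:**
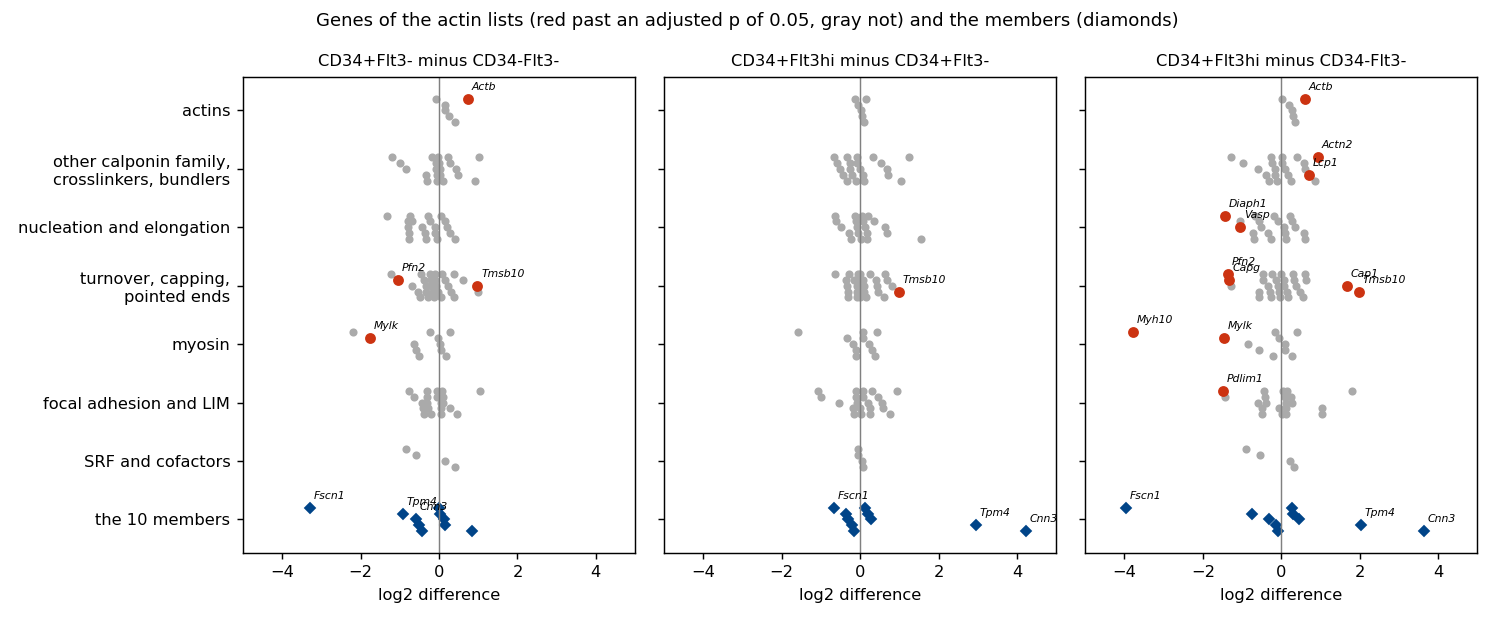
Log2 differences of the 112 measured actin-list genes in their 7 lists and of the 10 members (diamonds) in each comparison; red genes pass a limma adjusted p of 0.05. In CD34+Flt3hi minus CD34+Flt3- only Tmsb10 is red among the lists, and Tpm4 and Cnn3 lie at 2.95 and 4.22.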

How the data were processed

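Amplified, biotin-labelled cRNA of sorted cells was hybridised, per the labels' protocols. The deposited values are intensity values per probe set, made with RMA (version and arrays processed together not given in the sources used here), per the submitters' processing notes. That they are linear is inferred from their range, 6.50 to 24174. Log2 was taken here. Symbols came from the platform annotation and were updated by gene identifier (99.1% matched). No probe set named a member together with another gene.

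A limma 3.58.1 model (R 4.3.3) of the 3 group means took in every array, with an intensity trend (3 residual and 6.86 prior degrees of freedom), with Benjamini-Hochberg adjustment over 18193 genes, two-sided, threshold 0.05. Intervals are 95%. With 2 arrays a group, the smallest exact permutation p is 0.333. Members and lists were chosen with earlier results of these data known. The rule for named genes took all members, up to 3 called genes per list, direction and comparison, and the 5 nearest genes of Tpm4, Cnn3 and Fscn1 with predicted genes passed over. A group wholly below background was set to background, and the fold is a bound. Tested on simulated data of 18193 genes, the model recovered 58.2% of changes of log2 2 and 4.48% of those of log2 1 for CD34+Flt3hi minus CD34+Flt3-. Figures used matplotlib 3.10.9.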

Additional observations from a re-analysis of the deposited data

How the results depend on the processing

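With 2 arrays a group, calls moved with single arrays and with the estimate of the spread. The replicate numbers name arrays only, and the title code was taken as a fixed replicate block, which fits the single code C array exactly. Under that replicate block the genes called were 1579 at the first step of the sort, 670 at the next and 2360 between the outer groups (382, 111 and 1112 without it), and the actin list calls were 10, 14 and 20 (4, 1 and 12 without it). The block also gave 1 call among the tested members, Cnn2 in the first comparison (-0.74, limma adjusted p = 0.0446), and turned Actn4 there to -0.041. Genes called in the first comparison were 199 with the mean of each gene's probe sets and 47 from only the 4 arrays compared, and in the next 69 and 300. Actin list calls in the first comparison were 1 without the intensity trend, 1 with the mean of probe sets and 0 from the 4 arrays. In the next they were 6 from the 4 arrays and 0 with each of no trend, quantile normalization, the mean of probe sets, no x or s probe sets, and probe sets tested singly (limma, 17 to 19 at an unadjusted p under 0.05). Leaving out 1 array at a time, genes called ran from 0 (without CD34+Flt3- replicate 2) to 983, from 18 to 300 and from 271 to 1918, and actin list calls from 0 to 10, 0 to 6 and 2 to 18. Small differences of tested members changed sign. Tpm3 gave -0.22 in the first comparison with the mean of probe sets, -0.043 to 0.35 leaving out 1 array, and -0.014 in the next with quantile normalization. Actn1 gave 0.22, 0.09 and 0.25 in the first with quantile normalization, median centring and the mean of probe sets, and -0.050 in the next with the last of these. Leaving out 1 array, Actn1 in the first ran from -0.14 to 0.14, Tagln2 in the first from -0.058 to 0.31, Tpm2 in the next from -0.87 to 0.13 and Tpm2 between the outer groups from -0.037 to 0.96. Tagln2 between the outer groups was 0.029 with median centring and ran from -0.26 to 0.10 leaving out 1 array (0.019 without CD34+Flt3hi replicate 1). The causes were not tested.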
